A study of Mus musculus with 45 samples.

Results

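The genes described here are the 4 FoxO transcription factors, Foxo1, Foxo3, Foxo4 and Foxo6, and 5 genes that are commonly linked to them, Txnip, Fbxo32, Sesn1, Sesn3 and Pik3ip1. They were picked by mouse symbol through their Ensembl identifiers, and all 9 were found among the 54532 rows of the gene count table. Every member had reads in each of the 45 libraries, from a lowest count of 12 for Fbxo32 to a highest count of 11607 for Sesn3, and all 9 passed the filter on low counts in every comparison. RNA came from hippocampal primary neurons of newborn C57BL/6N mice, and the 9 conditions were each sampled once in 5 culture preparations. The labels carry the numbers 1, 3, 6, 7 and 8 without naming what they count, and each number was taken as 1 preparation. Cultures were left untreated (control) or received bicuculline (Bic, 50 µM), which blocks GABA type A receptors and thereby induces action potential (AP) firing, for 0.5, 1 or 2 h. The short protocol (SP) had 0.5 h of Bic and then 0.5 h with the sodium channel blocker tetrodotoxin (TTX, 1 µM) or with TTX and bath-applied NMDA (30 µM). The long protocol (LP) had 1 h of Bic and then 1 h of an intervention, which was TTX, TTX plus NMDA, or the glutamate transporter inhibitor TBOA (50 µM). By the study's methods, Bic stayed in the medium during every intervention. All groups shared the B27-based medium with rat serum, the later change to a medium that contains insulin, and the cytosine arabinoside given early in culture, so no group was free of insulin. The study's RNA-seq methods name day in vitro 11, and its general methods for cell assays day 10 or 11. The LP and SP names for the passive effect (TTX against ongoing Bic), the active effect (TTX/NMDA against TTX) and the total effect (TTX/NMDA against ongoing Bic) follow the study.

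FoxO factors are forkhead transcription factors at the end of the insulin and PI3K pathway. When the kinase Akt is active it phosphorylates them, 14-3-3 proteins bind, and the factors stay in the cytoplasm. When Akt signalling is low they enter the nucleus and activate genes of cell cycle exit, stress resistance, autophagy, protein breakdown and cell death. In neurons FoxO factors are known for roles in survival and in synaptic function, and Foxo6 is known as a factor of the hippocampus and cortex. Their activity is set mainly by phosphorylation and location, which RNA counts do not measure. Among the linked genes, Txnip encodes an arrestin-like protein that binds thioredoxin and limits glucose uptake, Fbxo32 encodes the ubiquitin ligase component atrogin-1, Sesn1 and Sesn3 encode sestrins that restrain mTORC1, and Pik3ip1 encodes a membrane protein that inhibits PI3K.

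Of the promoter windows of the members in the RefSeq table (250 bases before to 50 bases after a gene start, build GRCm38.p6), those of 6 members were matched, in 7 windows. The FoxO element GTAAACA, searched on both strands, was found in 2 of the 7 windows, and in 3.65% of the 32851 promoter windows of all genes. These windows are shown because they are the ones among the members that hold this motif, which is in capitals. The match in Txnip (chr3:96557707-96558006, plus strand) began at base -121 from the start, and that in 1 of 2 windows of Sesn1 (chr10:41810324-41810623, plus strand) was the reverse complement TGTTTAC, which began at base 23 after the start.
Txnip: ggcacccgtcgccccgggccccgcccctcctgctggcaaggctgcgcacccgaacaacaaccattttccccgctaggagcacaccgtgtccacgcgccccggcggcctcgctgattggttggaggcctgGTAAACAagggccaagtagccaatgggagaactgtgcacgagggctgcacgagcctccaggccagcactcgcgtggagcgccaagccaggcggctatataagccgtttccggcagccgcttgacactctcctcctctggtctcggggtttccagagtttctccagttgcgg
Sesn1: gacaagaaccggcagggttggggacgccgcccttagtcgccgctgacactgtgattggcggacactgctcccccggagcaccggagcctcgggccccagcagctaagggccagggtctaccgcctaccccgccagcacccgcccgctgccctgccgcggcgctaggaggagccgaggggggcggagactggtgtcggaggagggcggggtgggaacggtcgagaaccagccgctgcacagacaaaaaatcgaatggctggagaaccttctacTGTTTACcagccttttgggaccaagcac
No member window held the insulin response core TGTTTTG (6.28% of all windows), the E-box CACGTG (7.15%) or the cAMP response element TGACGTCA (1.79%). A match is a description of these letters only. Sequences for Foxo4, Foxo6 and Fbxo32 are not shown.

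Reads counted on genes ranged from 11316580 to 81129276 per library (median 26239614). No 2 libraries were identical, and libraries of the same condition correlated at 0.984 to 0.996 on the log2 CPM scale. Levels of a gene are given as CPM, the read count scaled to library size with TMM factors. The 9 activity-induced reference genes, among them Fos, Fosb and Npas4, all rose after 2 h Bic, with a median log2 fold change of 4.25. Summed neuronal markers (Rbfox3, Map2, Tubb3 and 6 others) lay between 6464 and 8593 CPM in all libraries, and those of microglia did not exceed 5.79 CPM.

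Levels of different genes were compared per length, as RPKM, the CPM per kilobase of the gene's exon union. In the control, Foxo6 stood at 29.1 RPKM ± 2.91 (SD, n = 5) and was the highest member. Foxo3 (9.0 ± 0.92 RPKM), Sesn3 (7.34 ± 1.20), Foxo1 (7.11 ± 0.56) and Sesn1 (6.60 ± 0.46) followed, and each of these 4 overlapped its neighbour in that order. Pik3ip1 (3.68 ± 0.58 RPKM), Foxo4 (1.5 ± 0.11), Txnip (0.944 ± 0.246) and Fbxo32 (0.254 ± 0.077) were lower, and these groups did not overlap with each other or with Sesn1. The rarest members were therefore measured with few reads: the median count per library was 63 for Fbxo32, 70 for Txnip and 158 for Foxo4, against 3292 for Sesn3. Across the 9 conditions, every member's neighbouring conditions in the order of mean CPM overlapped.

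**Figure D1:**
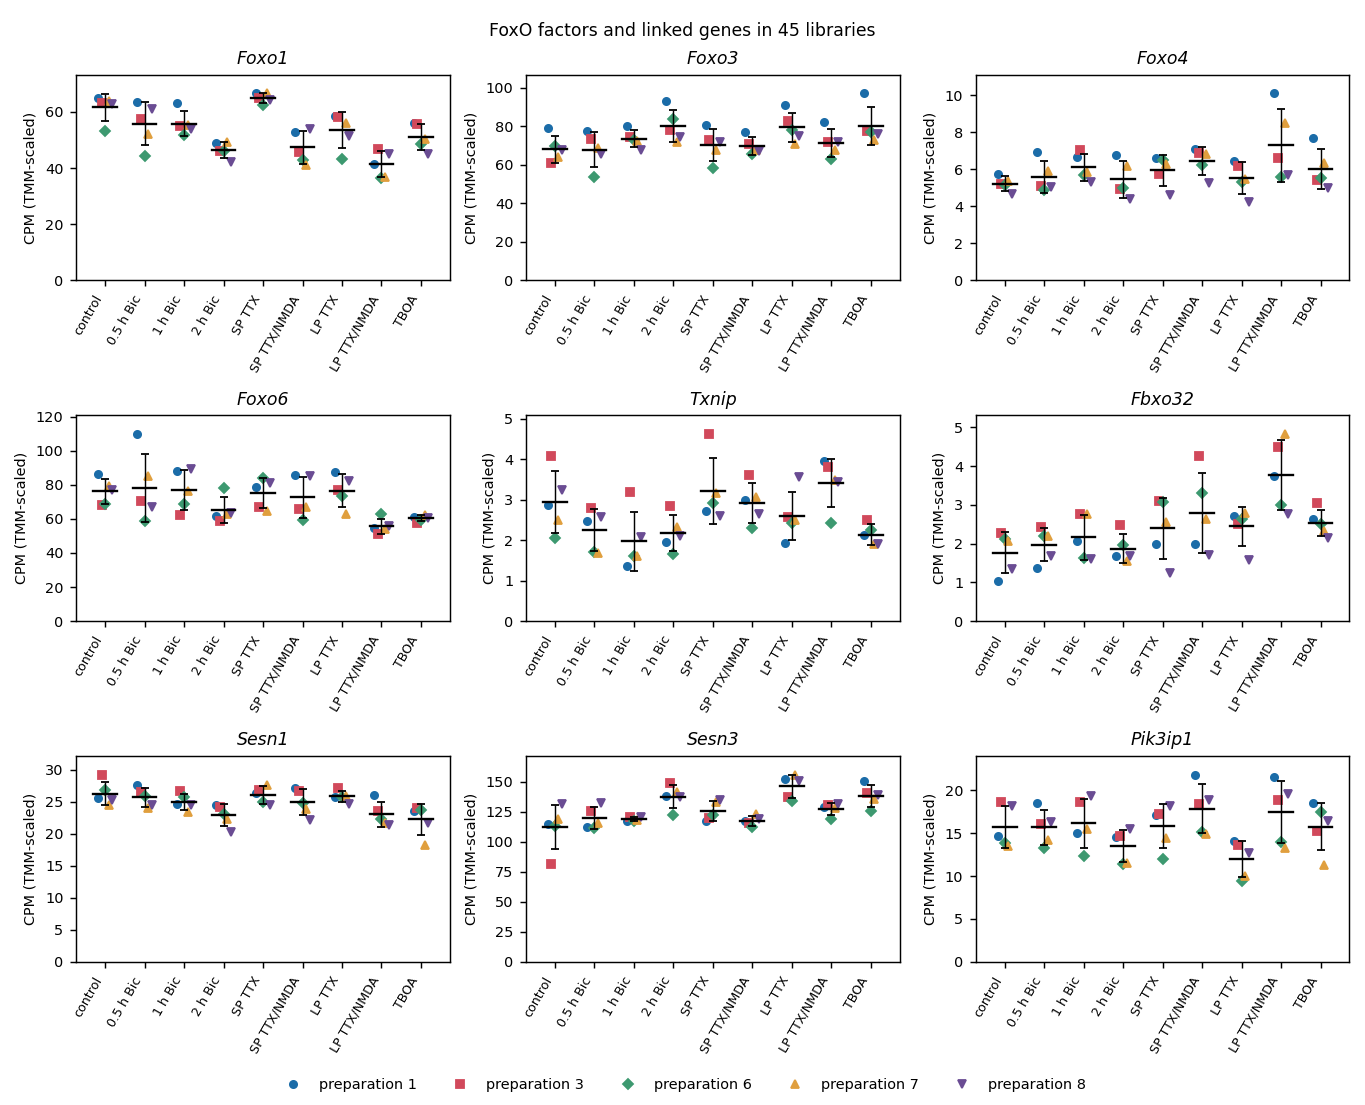
TMM-scaled CPM of the 9 genes (y axis, from 0) in the 9 conditions (x axis), with 1 point per library, coloured by culture preparation, and the mean ± SD of the 5 libraries as black bars. LP TTX/NMDA held the lowest mean of Foxo1 (41.4 CPM) and Foxo6 (55.7 CPM) and the highest mean of Foxo4 (7.31 CPM), Txnip (3.42 CPM) and Fbxo32 (3.76 CPM).

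With 2 h of AP firing Foxo1 fell and Sesn3 rose. They were 2 of the 9 members, against 9.02% of all 30929 genes tested and 18.6% of the 13592 expressed genes (mean CPM of at least 1 over the 45 libraries). Fitting the preparation as a block (paired fit) called 6 of 9, against 29.3% of all genes in that fit: Foxo3 and Sesn3 were higher and Foxo1, Txnip, Sesn1 and Pik3ip1 lower. DESeq2 called only Foxo1. After 0.5 h Bic edgeR called 0 of 9 members (0.289% of all genes), with 0 at an unadjusted p under 0.05 and 0 in DESeq2 or in the paired fit. After 1 h Bic it called 0 of 9 (1.16% of all genes), with 1 at an unadjusted p under 0.05 and 0 in DESeq2, while the paired fit called 1, Txnip (4.07% of all genes). These comparisons share the control libraries.

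Of all 17 comparisons, the one of NMDA in the long protocol called the most members. In the LP active effect, Fbxo32, Pik3ip1 and Foxo4 rose and Foxo6, Foxo1 and Sesn3 fell, 6 of 9 members. That share stands beside 23.3% of all 32852 genes tested and 46.9% of the expressed genes, and all 9 members are expressed genes. In bulk samples such as these, fewer cells of a type and less RNA per cell cannot be told apart. The paired fit called all 9, against 62.1% of all genes in that fit, with Txnip added to those that rose and Foxo3 and Sesn1 to those that fell. The median log2 fold change of the members was -0.16, beside -0.01 over the expressed genes and 0.11 over all genes tested. In the LP total effect 5 of 9 members were called, against 22.8% of all genes and 45.3% of the expressed genes: Fbxo32, Txnip, Foxo4 and Pik3ip1 rose and Foxo6 fell. The paired fit called 6 (56.6% of all genes), with Foxo3 as the addition at -0.15 (adjusted p = 0.0275). Without preparation 1 the LP total effect called 2 members, Txnip and Fbxo32.

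Blocking AP firing without NMDA left no member called in the unpaired fit when set against Bic of the same total time. In the LP passive effect edgeR called 0 of 9 (4.65% of all genes), with 4 at an unadjusted p under 0.05 and 0 in DESeq2. The paired fit called 4 (32% of all genes): Foxo6, Foxo1 and Sesn1 were higher with TTX, by 0.21, 0.18 and 0.16 on the log2 scale, and Pik3ip1 was lower, at -0.20. In the SP passive effect edgeR called 0 of 9 (0.268%), with 2 at an unadjusted p under 0.05 and 0 in DESeq2. The paired fit called 1, Txnip (0.489% of all genes), at 0.71.

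With NMDA in the short protocol, Foxo1 fell, and the SP active effect called 1 of 9 members, against 4.28% of all genes. In the SP total effect edgeR called 0 of 9 (4.3%), with 2 at an unadjusted p under 0.05 and 0 in DESeq2. The paired fit called 2 (27.3% of all genes), Foxo1 at -0.26 and Txnip at 0.55. The difference between the LP and SP active effects was tested directly: 0 of 9 members were called (2.57% of all genes), with 3 at an unadjusted p under 0.05 and 0 in DESeq2. The paired fit called 2 (25% of all genes). In it the effect on Foxo6 was lower in the long protocol by a log2 difference of -0.41 (adjusted p = 0.0132), and that on Pik3ip1 was higher by 0.36 (adjusted p = 0.00377). For the LP and SP passive effects the same test called 0 of 9 (0.256%), with 0 at an unadjusted p under 0.05, 0 in DESeq2 and 0 in the paired fit.

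TBOA, which forces a spillover of glutamate, moved no member past the threshold against 2 h Bic. There edgeR called 0 of 9 (0.602% of all genes), with 3 at an unadjusted p under 0.05 and 0 in DESeq2 or in the paired fit. The members' log2 fold changes ran from -0.10 for Foxo6 to 0.45 for Fbxo32. Fbxo32 was higher with TBOA in 5 of 5 preparations, at 0.45 ± 0.17 (SE, edgeR adjusted p = 0.384). Against LP TTX, TBOA called 2 of 9 (4.26% of all genes): Foxo6 was lower and Pik3ip1 higher.

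The long protocol was also set against earlier states. Against 1 h Bic, the point at which TTX was added, LP TTX called 2 of 9 (7.19% of all genes), with Sesn3 higher and Pik3ip1 lower. LP TTX/NMDA called 4 of 9 against 1 h Bic (21.1%), with Fbxo32 and Txnip higher and Foxo1 and Foxo6 lower. Against control, LP TTX called Sesn3 as higher and Pik3ip1 as lower, 2 of 9 (6.75%), and the paired fit called 4 (24.1%), with Foxo3 at 0.21 and Foxo1 at -0.22 added. LP TTX/NMDA called 4 of 9 against control (19.5%), with Fbxo32 and Foxo4 higher and Foxo1 and Foxo6 lower, and the paired fit called 5 (47.2%), with Sesn1 at -0.19 added.

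**Figure D2:**
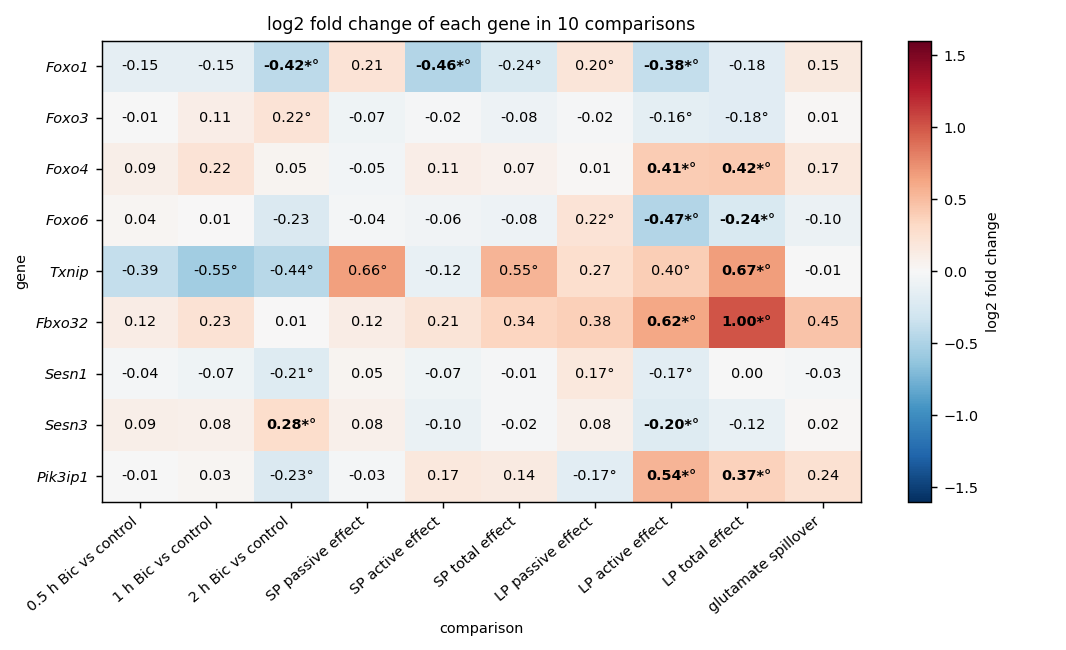
Log2 fold change of each gene (rows) in 10 comparisons (columns), by colour and number from the unpaired fit, with * where that edgeR fit and ° where the paired fit had an adjusted p under 0.05. The LP active and LP total columns hold most of the unpaired calls, 6 and 5 of 9, and the column for glutamate spillover holds none.

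Foxo1 (chromosome 3, 52268336 to 52353221, plus strand, GRCm38) encodes the FoxO factor best known from the insulin response of liver. In preparations 1, 3, 6, 7 and 8, the order used from here on, its level was 64.9, 63.3, 53.1, 64.0 and 62.8 CPM in the control. After 2 h Bic it was 48.9, 45.9, 46.1, 49.4 and 42.2 CPM. All 5 libraries after 2 h Bic lay below all 5 control libraries, and Foxo1 fell by 0.42 on the log2 scale ± 0.08 (SE, edgeR adjusted p = 0.000191). In this comparison the groups did not overlap, in either direction, for 8.34% of all genes tested. After 0.5 and 1 h Bic it was lower in 5 of 5 preparations, at -0.15 both times, and did not pass the test (adjusted p = 0.844 and 0.658).

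NMDA lowered Foxo1 in either protocol. With SP TTX it stood at 66.7, 64.9, 62.6, 66.7 and 64.3 CPM, the highest mean of any condition (65.0 ± 1.71, SD). With SP TTX/NMDA it stood at 53.0, 45.8, 43, 41.1 and 53.7 CPM. These groups did not overlap, which held for 4.95% of all genes tested, and the SP active effect was -0.46 ± 0.07 (SE, edgeR adjusted p = 6.47e-05). In the long protocol its values were 58.6, 58.1, 43.2, 56.0 and 51.6 CPM with TTX and 41.4, 46.9, 36.6, 37 and 45 CPM with TTX/NMDA. The library of preparation 6 with TTX reached into the range of the TTX/NMDA libraries, but within each preparation TTX/NMDA was lower, and the LP active effect was -0.38 ± 0.08 (edgeR adjusted p = 0.000973). The LP active effect differed from the SP active effect by 0.10 ± 0.12 (adjusted p = 0.821). Against 2 h Bic, the LP total effect was -0.18 ± 0.08 (adjusted p = 0.0984), with 3 of 5 preparations lower.

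Foxo6 (chromosome 4, 120267079 to 120287349, minus strand) was the member with the highest level per length. With LP TTX it stood at 87.8, 76.7, 73.5, 62.7 and 82.4 CPM. With LP TTX/NMDA it stood at 54.6, 51.3, 62.8, 53.9 and 55.7 CPM. The ranges met only at preparation 7 with TTX and preparation 6 with TTX/NMDA, and all 5 preparations were lower with NMDA. The LP active effect was -0.47 ± 0.08 (SE, edgeR adjusted p = 4.24e-05), the largest fall among the members in that comparison. Against 2 h Bic, where Foxo6 was at 61.9, 58.6, 78.3, 62.9 and 63.7 CPM, the fall was -0.24 ± 0.08 (adjusted p = 0.0224). That call was lost when preparation 1, 3, 6 or 7 was left out, with values from -0.26 to -0.19 over all leave-outs. It was also lost in the fit over all 45 libraries, at -0.23. After 2 h Bic itself Foxo6 was at -0.23 ± 0.08 against control (adjusted p = 0.0893).

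In the short protocol Foxo6 did not pass the test. SP TTX libraries ranged from 64.4 to 84.2 CPM and SP TTX/NMDA libraries from 59.4 to 85.9 CPM, with an SP active effect of -0.06 ± 0.09 (edgeR adjusted p = 0.774). With TBOA the 5 libraries lay close together, at 61.2, 57.7, 59.5, 62.5 and 60.8 CPM. All of them were below every LP TTX library, and 4.52% of all genes tested had no overlap in this comparison. The difference was -0.34 ± 0.07 (adjusted p = 0.00186), a call lost in the fit over all 45 libraries at the same -0.34.

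Foxo3 (chromosome 10, 42181841 to 42276755, minus strand), known for activating death genes in neurons that lose trophic support, moved less. Its libraries ranged from 60.8 to 79.1 CPM in the control and from 71.8 to 92.9 CPM after 2 h Bic, and it was higher in 5 of 5 preparations. The log2 fold change was 0.22 ± 0.08 (edgeR adjusted p = 0.0975), and 0.23 ± 0.05 in the paired fit (adjusted p = 0.00575). LP TTX libraries ranged from 71.0 to 90.8 CPM and LP TTX/NMDA libraries from 63.0 to 82.2 CPM, lower in 5 of 5 preparations. That LP active effect was -0.16 ± 0.08 (adjusted p = 0.130), and -0.14 ± 0.05 in the paired fit (adjusted p = 0.0181).

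Foxo4 (chromosome X, 101254528 to 101260873, plus strand), the shortest member gene after Txnip, rose with NMDA in the long protocol. It stood at 6.44, 6.18, 5.34, 5.47 and 4.25 CPM with LP TTX and at 10.1, 6.62, 5.57, 8.53 and 5.70 CPM with LP TTX/NMDA. Preparations 1 and 7 with NMDA lay above all other 43 libraries. Preparation 3 with NMDA, at 6.62 CPM, was slightly above the highest LP TTX library, at 6.44 CPM. The NMDA libraries at 5.57 and 5.70 CPM lay within the range of LP TTX. The LP active effect was 0.41 ± 0.15 (SE, edgeR adjusted p = 0.0494). It was 0.30 without preparation 1 and 0.34 without preparation 7, and the call was lost in each. The LP total effect was 0.42 ± 0.15 (adjusted p = 0.0387), with a loss of the call without preparation 1 at 0.37, and DESeq2 called neither effect. The unpaired fit over genes that pass the filter on low counts (filterByExpr) also called neither, at 0.43 for the LP active and 0.45 for the LP total effect. Against control, LP TTX/NMDA was higher by 0.49 ± 0.15 (adjusted p = 0.0160), and that call was lost without preparation 1 (0.36) or 7 (0.44).

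Among the linked genes, Fbxo32 (chromosome 15, 58175879 to 58214932, minus strand), whose product marks muscle proteins for breakdown during atrophy, rose most. In the control it was at 1.04, 2.27, 2.13, 2.06 and 1.35 CPM, and after 2 h Bic at 1.67, 2.47, 1.96, 1.55 and 1.68 CPM. With LP TTX it was at 2.70, 2.52, 2.65, 2.79 and 1.57 CPM. With LP TTX/NMDA it was at 3.73, 4.50, 2.99, 4.83 and 2.77 CPM, above every control and every 2 h Bic library. The groups did not overlap in these comparisons for 12.2% and 15.3% of all genes tested. The LP total effect was 1.00 ± 0.18 (SE, edgeR adjusted p = 3.64e-05) and the difference from control 1.03 ± 0.19 (adjusted p = 0.000102). Against LP TTX, where the ranges overlapped slightly, all 5 preparations were higher and the LP active effect was 0.62 ± 0.17 (adjusted p = 0.00807). The unpaired calls for these 3 comparisons held when each preparation was left out in turn. In the short protocol the SP active effect was 0.21 ± 0.22 (adjusted p = 0.625), and the LP active effect differed from it by 0.43 ± 0.31 (adjusted p = 0.608).

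Txnip (chromosome 3, 96557957 to 96561883, plus strand) was lower during AP firing in every preparation, past the test only in the paired fit. It was at 2.87, 4.08, 2.06, 2.5 and 3.23 CPM in the control and at 1.36, 3.19, 1.6, 1.61 and 2.07 CPM after 1 h Bic. Each preparation was lower after 0.5, 1 and 2 h of Bic than in its control, although the groups overlapped. The log2 fold changes were -0.39 ± 0.20, -0.55 ± 0.21 and -0.44 ± 0.19, and did not pass the test (edgeR adjusted p = 0.844, 0.413 and 0.178). In the paired fit those after 1 and 2 h did (adjusted p = 0.0305 and 0.0280).

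When firing was blocked after 0.5 h of Bic, Txnip was at 2.73, 4.62, 2.93, 3.18 and 2.60 CPM (SP TTX). This was higher than after 1 h Bic in 5 of 5 preparations, by 0.66 ± 0.19 (edgeR adjusted p = 0.272), and by 0.71 ± 0.13 in the paired fit (adjusted p = 0.0294). With LP TTX/NMDA it was at 3.95, 3.81, 2.44, 3.48 and 3.43 CPM, and after 2 h Bic at 1.95, 2.84, 1.65, 2.32 and 2.09 CPM. Only preparation 6 with NMDA lay within the range of 2 h Bic, and the LP total effect was 0.67 ± 0.17 (adjusted p = 0.00221), with the call kept whichever preparation was left out. Of this, the LP passive effect was 0.27 ± 0.17 (adjusted p = 0.499) and the LP active effect 0.40 ± 0.16 (adjusted p = 0.0833 unpaired, 0.0110 paired and 0.0462 in DESeq2).

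Pik3ip1 (chromosome 11, 3330401 to 3342971, plus strand) was lowest with LP TTX, at 14.1, 13.6, 9.46, 10.04 and 12.7 CPM. With LP TTX/NMDA it was at 21.5, 18.9, 14, 13.3 and 19.5 CPM, higher in 5 of 5 preparations. Preparations 6 and 7 were the lowest in both conditions, and the ranges overlapped. The LP active effect was 0.54 ± 0.12 (SE, edgeR adjusted p = 0.00121), and 0.55 ± 0.06 in the paired fit (adjusted p = 6.71e-07). Against control LP TTX was at -0.40 ± 0.12 (adjusted p = 0.0266), a call lost without preparation 7 (-0.39) or 8 (-0.36), and against 1 h Bic at -0.43 ± 0.11 (adjusted p = 0.0124). TBOA, at 18.5, 15.2, 17.4, 11.3 and 16.4 CPM, was above LP TTX by 0.40 ± 0.11 (adjusted p = 0.0269), which was lost without preparation 6 (0.31). The LP total effect was 0.37 ± 0.11 (adjusted p = 0.0134) and was lost without preparation 1 (0.33).

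The sestrins differed from each other. Sesn3 (chromosome 9, 14275067 to 14333101, plus strand) was at 115, 81.9, 113, 119 and 131 CPM in the control, where preparation 3 stood apart. After 2 h Bic it was at 138, 149, 122, 142 and 137 CPM, higher in 5 of 5 preparations, by 0.28 ± 0.09 (SE, edgeR adjusted p = 0.0433). Without preparation 3 the difference was 0.16 and not called, and it was also lost without preparation 1 or 7. With LP TTX Sesn3 stood at 152, 138, 134, 156 and 151 CPM, the highest mean of any condition. All of these were above every control and every 1 h Bic library, by 0.37 ± 0.09 (adjusted p = 0.00704) and 0.29 ± 0.06 (adjusted p = 0.00169). The groups did not overlap in these comparisons for 6.91% and 6.4% of all genes tested. With LP TTX/NMDA Sesn3 was at 129, 131, 119, 128 and 131 CPM, below every LP TTX library, in a comparison where 15.8% of all genes tested had no overlap. The LP active effect was -0.20 ± 0.07 (adjusted p = 0.0213), a call lost without preparation 1 (-0.19) or 7 (-0.18).

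Sesn1 (chromosome 10, 41809935 to 41908424, plus strand) varied little, with condition means between 22.3 CPM (TBOA) and 26.3 CPM (control). After 2 h Bic it was lower in 5 of 5 preparations, at -0.21 ± 0.08 (edgeR adjusted p = 0.136), and at -0.21 ± 0.06 in the paired fit (adjusted p = 0.0223). LP TTX libraries, at 24.7 to 27.2 CPM, lay above all 2 h Bic libraries, at 20.3 to 24.5 CPM, in a comparison where 4.9% of all genes tested had no overlap. The LP passive effect was 0.17 ± 0.07 (adjusted p = 0.244 unpaired and 0.0176 paired). The LP active effect was -0.17 ± 0.08 (adjusted p = 0.117 unpaired, 0.0215 paired and 0.0332 in DESeq2).

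**Figure D3:**
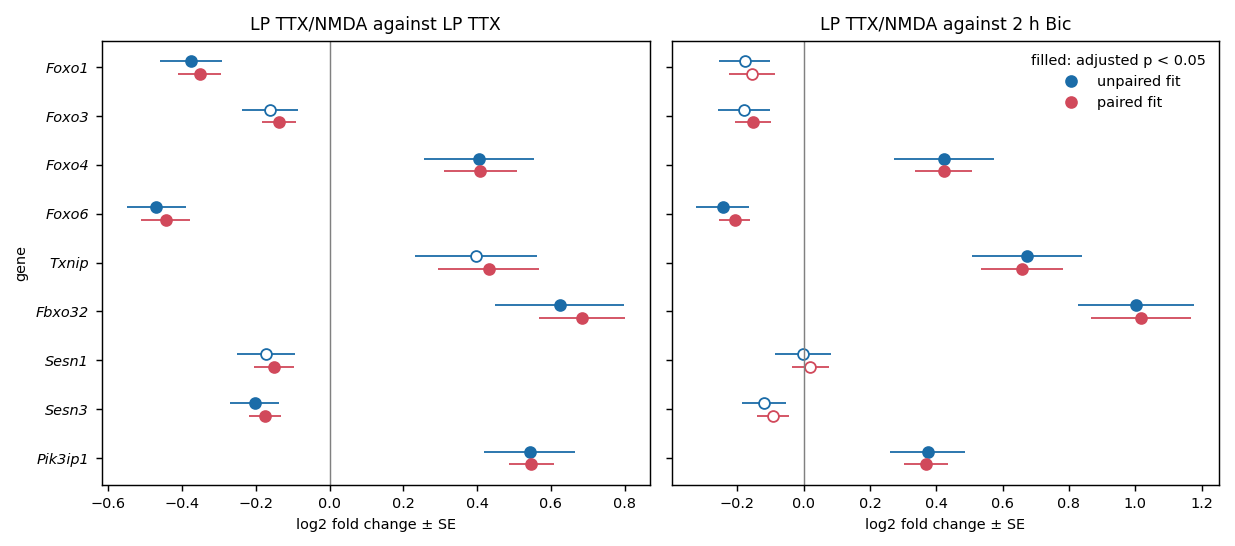
Log2 fold change ± SE of each gene in LP TTX/NMDA against LP TTX (left) and against 2 h Bic (right), from the unpaired fit (blue) and from the fit with the preparation as a block (red), filled where the adjusted p was under 0.05. Estimates were close between the fits (0.62 and 0.68 for Fbxo32 on the left), the paired SEs were shorter, and 9 points are filled on the left in red and 6 in blue.

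Markers of other cell types moved in the same comparison as the members. In the LP active effect 6 of 7 astrocyte markers rose and 1 fell (Slc1a2, the main glutamate transporter), 4 of 7 oligodendrocyte lineage markers rose, as did 2 of 4 markers of endothelial cells and pericytes (Pdgfrb, Rgs5) and 1 of 5 of microglia (P2ry12), and 4 of 9 neuronal markers fell. These counts stand beside 20% of the expressed genes that rose and 26.9% that fell. The paired fit called 62.1% of all genes. It had 6 of 7 astrocyte markers higher and 1 lower, 5 of 7 oligodendrocyte lineage markers higher and 2 of 3 of endothelial cells and pericytes higher. Of 9 neuronal markers it had 2 higher and 5 lower, and of 4 microglial markers it called 0. Summed neuronal markers were 7711 to 8593 CPM with LP TTX and 6695 to 7290 CPM with LP TTX/NMDA, without overlap. Summed astrocyte markers were 965 to 1448 CPM and 1093 to 1928 CPM. Those of the oligodendrocyte lineage were 47.2 to 76.0 CPM and 55.3 to 125 CPM, those of endothelial cells and pericytes 14.3 to 18.2 CPM and 23.3 to 26.6 CPM, and those of microglia 3.65 to 5.28 CPM and 3.73 to 5.76 CPM. Some defining markers were near 0 in both conditions, with mean levels of 0.0153 and 0.0322 CPM for Cldn5, 0.0751 and 0.259 CPM for P2ry12 and 0.233 and 0.363 CPM for Mog. The part of these markers in the members' changes was not tested.

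**Figure D4:**
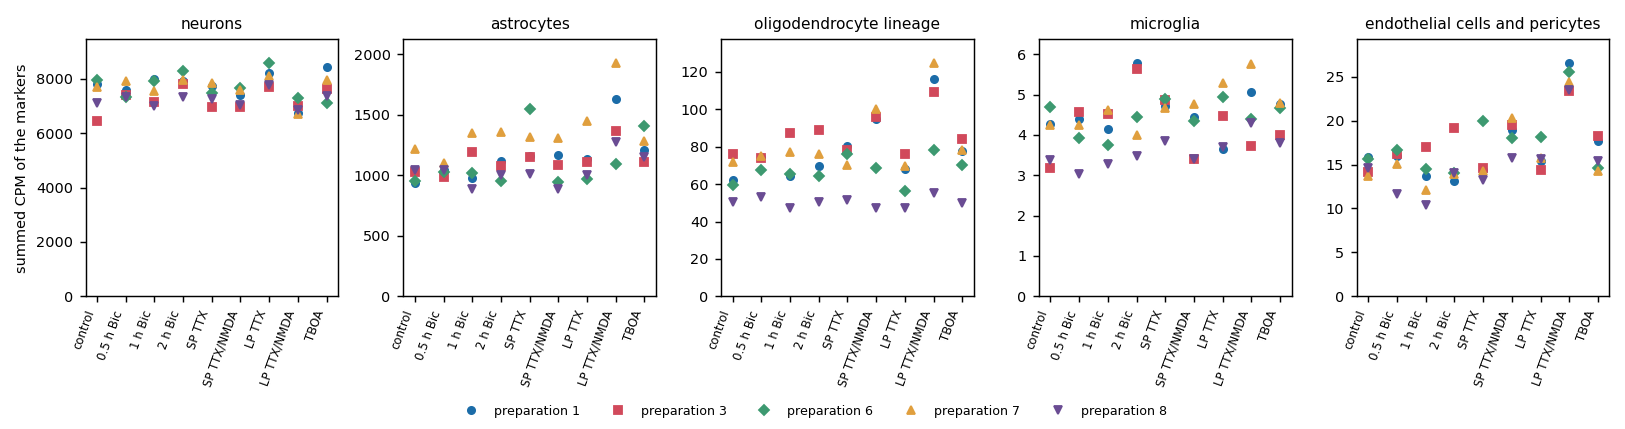
Summed TMM-scaled CPM of the markers of 5 cell types (y axes, from 0) in the 9 conditions (x axis), with 1 point per library, coloured by culture preparation. With LP TTX/NMDA the neuronal sum was at 6695 to 7290 CPM and the sum for endothelial cells and pericytes at 23.3 to 26.6 CPM.

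More genes upstream of FoxO fell than rose with NMDA. Of 28 genes of insulin, PI3K and Akt signalling, 2 rose and 13 fell in the LP active effect, with a median of -0.19, where 20% of the expressed genes rose and 26.9% fell. The paired fit, which called 62.1% of all genes, had 4 higher and 14 lower of 27. Among those that fell were the PI3K regulatory subunits Pik3r3 (-0.85 ± 0.08, edgeR adjusted p = 6.72e-10) and Pik3r1 (-0.81 ± 0.08, adjusted p = 4.88e-09). Akt2 rose (0.28 ± 0.09, adjusted p = 0.0202), a call that 2 of 5 leave-outs lost, and so did the growth factor gene Igf2 (1.12 ± 0.41, adjusted p = 0.0487), which went from 0.601 ± 0.362 to 1.36 ± 1.14 CPM (SD) and whose call was lost in 3 of 5 leave-outs and in DESeq2 (adjusted p = 0.244). With 2 h of Bic 4 of the 28 rose and 1 fell, beside 8.18% and 10.4% of the expressed genes, and the paired fit (29.3% of all genes called) had 8 higher and 1 lower of 27. The kinase gene Sgk1, which like Akt phosphorylates FoxO, rose by 2.18 ± 0.09 (adjusted p = 2.38e-20), the insulin receptor substrate Irs2 by 2.12 ± 0.10 (adjusted p = 3.78e-18) and Pik3r1 by 0.50 ± 0.10, while the mTORC2 subunit Rictor fell (-0.44 ± 0.09, adjusted p = 0.000572).

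Genes whose products bind or modify FoxO proteins also fell more often than they rose. Of 28, 1 rose and 16 fell in the LP active effect (median -0.25), beside 20% and 26.9% of the expressed genes. In the paired fit they were 5 and 19, where 62.1% of all genes were called. The lysine methyltransferase Setd7 (-0.89 ± 0.07, edgeR adjusted p = 2.08e-11), the acetyltransferase Ep300 (-0.77 ± 0.06) and the ubiquitin ligase subunit Skp2 (-0.70 ± 0.13) fell most, and the acetyltransferase Kat2b rose (0.51 ± 0.10, adjusted p = 0.000265). With 2 h of Bic 2 rose and 3 fell (median 0.02), beside 8.18% and 10.4% of the expressed genes, and 3 and 4 in the paired fit, where 29.3% of all genes were called. Setd7 was among those that rose (0.45 ± 0.09), and the AMPK subunit Prkaa1 (-0.88 ± 0.09, adjusted p = 2.28e-09), the deacetylase Sirt1 (-0.50 ± 0.11) and the kinase Stk4 (-0.38 ± 0.08) fell.

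Other genes linked to FoxO as targets did not move one way. In the LP active effect 13 of 48 tested rose and 8 fell (median 0.10), beside 20% and 26.9% of the expressed genes. The sets are unlike: this list, as the others, was counted over genes with at least 1 read, the share over genes with a mean CPM of at least 1. In the paired fit they were 20 and 14 of 44, where 62.1% of all genes were called. Those that rose most were Igfbp1 (2.41 ± 0.47, edgeR adjusted p = 0.000204), an insulin-like growth factor binding protein that was at only 0.361 ± 0.136 CPM (SD) with NMDA, the transcription factor Klf4 (2.25 ± 0.18, adjusted p = 8.36e-11) and the pyruvate dehydrogenase kinase Pdk4 (0.96 ± 0.21, adjusted p = 0.000884). The corepressor Tle4 (-0.75 ± 0.08), Irs2 (-0.71 ± 0.07) and the Myc antagonist Mxi1 (-0.61 ± 0.07) fell most. With 2 h of Bic 10 of 49 rose and 2 fell (median -0.03), beside 8.18% and 10.4% of the expressed genes, and 14 and 6 of 44 in the paired fit, where 29.3% of all genes were called. Klf4 rose by 5.37 ± 0.20 (adjusted p = 1.41e-21), Irs2 by 2.12 and the death gene Bcl2l11, which encodes Bim, by 1.52 ± 0.11 (adjusted p = 2.29e-13), while the autophagy gene Atg14 (-0.62 ± 0.10) and Rictor (-0.44 ± 0.09) fell.

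The shares of relatives and partners of Txnip and of sestrin pathway genes stand beside 20% of the expressed genes that rose and 26.9% that fell in the LP active effect, 8.18% and 10.4% after 2 h Bic, and 62.1% and 29.3% of all genes called in the paired fits of these comparisons. Of 10 relatives and partners of Txnip, 2 rose and 3 fell in the LP active effect (median -0.04), a share close to that of the expressed genes, and 4 and 4 of 9 in the paired fit. The arrestin-like gene Arrdc3 (-0.49 ± 0.09, edgeR adjusted p = 0.000201) and the glucose-sensing factors Mlxip (-0.41 ± 0.07) and Mlx (-0.26 ± 0.08) fell. Thioredoxin itself, Txn1, was higher by 0.19 ± 0.07 (adjusted p = 0.0412), a call that 5 of 5 leave-outs lost, and Arrdc2 by 0.29 ± 0.11 (adjusted p = 0.0471), which 4 lost. With 2 h of Bic 0 rose and 1 fell (median 0.0025), Arrdc4 (-0.37 ± 0.09, adjusted p = 0.00709), and the paired fit had 2 higher and 1 lower. Of 22 genes of the sestrin pathway to mTORC1, 2 rose and 8 fell in the LP active effect (median -0.12), and 4 and 10 in the paired fit. The Rag GTPase gene Rragd (-0.74 ± 0.07, adjusted p = 5.31e-10), the third sestrin Sesn2 (-0.42 ± 0.09) and the mTORC1 subunit Rptor (-0.40 ± 0.07) fell, and the arginine sensor Castor1 (0.62 ± 0.20, adjusted p = 0.0233) and the GATOR1 subunit Nprl2 (0.24 ± 0.07, adjusted p = 0.0193) rose, calls that 3 and 4 of 5 leave-outs lost. With 2 h of Bic 3 rose and 0 fell (median -0.0031), the mTORC1 inhibitor Ddit4 (0.66 ± 0.08), Sesn2 (0.63 ± 0.12) and the mTORC1 activator Rheb (0.43 ± 0.08), and 4 and 4 in the paired fit.

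**Figure D5:**
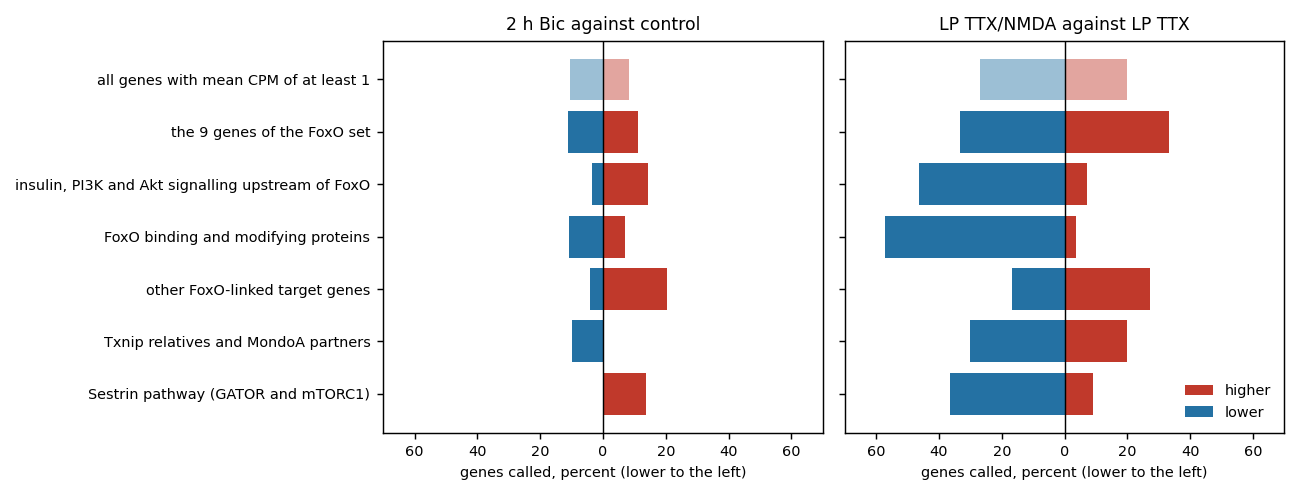
Share of tested genes called as higher (red, right) or lower (blue, left) by the unpaired edgeR fit, in percent, for the 9 genes of the FoxO set, the 5 lists around them and all genes with a mean CPM of at least 1 (pale bars), after 2 h Bic (left) and in the LP active effect (right). In the LP active effect 20% of all expressed genes were higher and 26.9% lower, and the 2 lists of upstream and binding genes had 13 and 16 of 28 genes lower.

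The members did not share 1 pattern over the 45 libraries. The highest correlation between 2 members on the log2 CPM scale was 0.57, between Foxo1 and Foxo6, and the lowest was -0.59, between Foxo6 and Fbxo32. With the preparation means removed, the highest were 0.68 between Foxo4 and Fbxo32 and 0.65 between Foxo3 and Sesn3 (0.50 and 0.48 before), above Foxo1 and Foxo6 at 0.60, and the lowest was -0.53, again between Foxo6 and Fbxo32. The genes most like each member over the 45 libraries, among 13591 other expressed genes, were Gprin3 (r = 0.82) and Nectin3 (0.81) for Foxo1, Hspa1a (0.83) and Igf2r (0.81) for Foxo3, Zadh2 (0.85) and Glmp (0.83) for Foxo4, and Tbc1d10b (0.83) and Zfp574 (0.79) for Foxo6. For the linked genes they were Timp3 (0.84) and Pkd2 (0.84) for Fbxo32, Mtmr10 (0.72) and Itm2a (0.71) for Txnip, Wnt7a (0.85) and Dclk3 (0.80) for Pik3ip1, Klf11 (0.71) and Hps6 (0.71) for Sesn1, and Nup98 (0.79) and Elmsan1 (0.78) for Sesn3. These libraries share preparations and treatments, so the values describe likeness only.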

How the data were processed

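RNA was sequenced from 45 cultures in 9 conditions, and the deposited table holds whole-number read counts per Ensembl gene. The authors prepared strand-specific poly-A libraries, aligned the reads to GRCm38 with STAR (2.5.4b) and counted them on the sense strand with featureCounts (1.6.5), leaving out reads of multiple places or genes. Reads of antisense genes that overlap Foxo1, Txnip, Fbxo32 and Pik3ip1 were thus counted apart. Symbols, lengths and positions came from GENCODE M21 (54409 of 54532 identifiers had a symbol).

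Each pair of conditions was tested on its own libraries with edgeR's quasi-likelihood test (version 4.0.16, R 4.3.3, two-sided), TMM scaling and all genes with at least 1 read, and called at a Benjamini-Hochberg adjusted p under 0.05 over all of them. A fold change is on the log2 scale of the fit. The study defines each culture preparation as 1 replicate, and the labels give only a number, so same-numbered libraries were taken as 1 preparation. Same-numbered deviations from condition means correlated at 0.43 on average over the 9 conditions, against -0.11 for different numbers. The paired fit added the preparation as a block over the genes that pass filterByExpr. Further alternatives were DESeq2 (1.42.0), RLE factors, filterByExpr, all 45 libraries in 1 fit and leaving out each preparation. Levels are TMM-scaled CPM. The test was checked on data simulated for the LP active effect. The share of false calls stayed within the threshold with dispersions from the trend over genes and exceeded it with each gene's own dispersion. Which dispersion is closer to the data was not tested, so the unpaired calls may hold more false calls than the threshold states. The simulated data also held far fewer changed genes than the LP active effect called.

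The members and gene lists were chosen with earlier results of these data known. Named were all 9 members, at most 3 rises and 3 falls per list among the calls of the LP active effect and of 2 h Bic, and the 2 genes most correlated with each member (log2 CPM, prior count 2). Some genes that this rule picks are not reported here. Groups came from sample titles.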

Additional observations from a re-analysis of the deposited data

Results flagged for a closer look

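Of the 81 sets of 5 libraries (9 members in 9 conditions), 6 held a library whose gap to the nearest other exceeded 0.71 of the whole range, Dixon's critical value for 5 samples, which chance exceeds in about 1 in 20 sets. Foxo1 in the control was 53.1 CPM in preparation 6 and 62.8 to 64.9 CPM in the others. Foxo3 with TBOA was 97.1 CPM in preparation 1 and at most 77.4 CPM in the others. Foxo6 after 2 h Bic was 78.3 CPM in preparation 6 and at most 63.7 CPM elsewhere. Txnip with SP TTX was 4.62 CPM in preparation 3 and at most 3.18 CPM in the rest. Fbxo32 with LP TTX was 1.57 CPM in preparation 8 and at least 2.52 CPM in the rest. Sesn3 with LP TTX/NMDA was 119 CPM in preparation 6 and at least 128 CPM elsewhere. Preparation 6 held 3 of the 6 libraries.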

How the results depend on the processing

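No call of a member reversed its direction under any alternative; 59 values that neither fit called changed sign. The numbers of members called were within 1.5 times under RLE size factors in all 17 comparisons. The paired fit (replicate block) moved the count after 1 h Bic from 0 to 1, after 2 h Bic from 2 to 6, in the SP passive effect from 0 to 1, SP total effect from 0 to 2, LP passive effect from 0 to 4, LP TTX against control from 2 to 4 and LP against SP active effect from 0 to 2; it lost no call. filterByExpr alone left 1 of 2 calls after 2 h Bic, for TBOA against LP TTX and for LP TTX against control. One fit over all 45 libraries left 0 for TBOA against LP TTX (Foxo6 and Pik3ip1 lost) and 1 for LP TTX against control, and DESeq2 left 1 after 2 h Bic. Leaving out each preparation gave 1 to 3 calls after 2 h Bic, 0 to 1 in the SP passive effect, 0 to 2 in the SP total and LP passive effects, 4 to 7 in the LP active effect, 2 to 7 in the LP total effect, 1 to 2 for TBOA against LP TTX and LP TTX against control, and 0 to 1 for LP against SP active effect. The causes were not tested.

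Over all genes, the paired fit called 4479 in place of 2789 after 2 h Bic, 618 for 357 after 1 h Bic, 2548 for 1379 in the SP active, 4217 for 1351 in the SP total and 4978 for 1485 in the LP passive effect, 417 for 191 with TBOA, 3713 for 2140 for LP TTX against control, 4527 for 2292 for LP TTX against 1 h Bic, 4165 for 900 for LP against SP active and 323 for 88 for LP against SP passive effect. DESeq2 called 2320 in the LP passive effect, 315 with TBOA, 1660 for LP against SP active and 183 for LP against SP passive effect; filterByExpr called 35 for 85 in the SP passive effect and 104 with TBOA; the fit over 45 libraries called 54 and 106 there. Leaving out each preparation gave 52 to 163 in the SP passive effect, 918 to 1828 in the SP active, 801 to 2068 in the SP total and 909 to 1647 in the LP passive effect, 123 to 493 with TBOA, 489 to 1128 for LP against SP active and 39 to 123 for LP against SP passive effect. After preparation means were removed, the 2 genes most like a member were others for 8 members, with Txnip keeping 1. Depth limits Fbxo32 and Txnip most, whose lowest counts were 12 and 23 reads.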
